A study of Mus musculus with 20 samples.

Results

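The 8 genes described here encode the kidney's main water channels and the receptor that sets their activity in the collecting duct. They are Aqp1, Aqp2, Aqp3, Aqp4, Aqp6, Aqp7 and Aqp11, of the aquaporin family, and Avpr2, the vasopressin V2 receptor. They were chosen by symbol from the 47069 genes of the count table, of which 27232 had a count in any mouse, and all 8 passed the filter on low counts and were among the 17622 genes tested.

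RNA was sequenced from kidneys of 20 male mice at 15 weeks of age. The WT group (n = 5) held untreated wild-type mice of the 129SJ x C57Bl/6J cross. The other groups held F1-Col4a3-/- mice of that cross, a model of Alport syndrome in which the gene of the alpha-3 chain of type IV collagen is disrupted in every cell. The Veh group (n = 6) received PBS once weekly under the skin. The Anti-miR-21 group (n = 6) received lademirsen, an oligonucleotide inhibitor of microRNA-21, at 50 mg/kg by the same route and schedule. The ACEi group (n = 3) received the angiotensin-converting enzyme inhibitor ramipril at 11 mg/L in drinking water, while the library table lists it at 4 mg/kg. These mice also had PBS injections. Treatment began at 5 weeks of age. Col4a3 disruption is thus shared by the Veh, Anti-miR-21 and ACEi groups, and the WT group differs from Veh in the PBS injections as well as in genotype.

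Aquaporins are membrane channels for water, and Aqp3 and Aqp7 also conduct glycerol. In the principal cells of the collecting duct, vasopressin binds Avpr2, raises cyclic AMP and brings vesicles that carry Aqp2 to the apical membrane, while Aqp3 and Aqp4 let the water leave across the basolateral membrane. Aqp1 is the constitutive water channel of the proximal tubule and descending thin limb, Aqp7 and Aqp11 lie in the proximal tubule, and Aqp6 lies in vesicles of intercalated cells. These tubule segments recover most of the filtered water, and those of the collecting duct adjust the concentration of urine.

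The library table gives 70004591 to 73294858 alignments per library, and the counts on genes summed to between 28474285 and 29479616. Flow cell A held 13 libraries and flow cell B held 7, with 3 and 2 WT, 4 and 2 Veh, 5 and 1 Anti-miR-21, and 1 and 2 ACEi libraries. Col4a3 had 194 to 238 CPM in WT mice, where CPM are read counts scaled to a common library size, and 27.9 to 46.3 in Veh, 45.9 to 74.9 in Anti-miR-21 and 42.8 to 56.2 in ACEi mice. The label on RNA extraction speaks of adipose tissue although the tissue label is kidney. Summed over 8 proximal tubule markers, WT mice had 17486 to 22183 CPM, and 6 adipocyte markers summed to 1.68 to 18.7 CPM in WT, 0.705 to 419 in Veh, 4.73 to 231 in Anti-miR-21 and 0.558 to 8.52 in ACEi mice. All defining markers of the proximal tubule, the thick ascending limb, principal cells and intercalated cells had counts in each group.

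The levels of the genes can be set side by side only per length, as the deposited FPKM (fragments scaled for gene length and library size). In WT mice the median FPKM was 385 for Aqp1, 206.3 for Aqp2, 72.0 for Aqp3, 34.3 for Aqp6, 29.1 for Aqp11, 17.6 for Avpr2, 10.5 for Aqp4 and 7.56 for Aqp7. In that order the ranges over mice overlapped between Aqp6 and Aqp11, between Avpr2 and Aqp4 and between Aqp4 and Aqp7, and the other neighbours did not overlap. In Veh mice Aqp1 at a median FPKM of 214.5 and Aqp2 at 178 overlapped, and Aqp11 at 6.42 stood below Avpr2 at 13.97. Aqp4 had the lowest median of the genes in each F1-Col4a3-/- group, at an FPKM of 4.17 in Veh, 4.90 in Anti-miR-21 and 1.62 in ACEi mice. The place of Avpr2 in this order is uncertain, because its FPKM entry lists an exon length of 0, and the Aqp4 entry is marked by the authors as confounded with another gene.

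The comparison of Veh with WT mice addressed the effect of the disease, and those of the treated groups with Veh the effect of each therapy. Aqp11, Aqp4, Aqp3, Aqp1 and Aqp7 were lower in every Veh mouse than in every WT mouse. Aqp1, Aqp3, Aqp7 and Aqp11 were higher in both treated groups than in Veh. The call of Aqp3 with anti-miR-21 was kept in 12 alternative fits and lost in 12. That of Aqp1 with ACEi was kept in 15 and lost in 6. Aqp4 fell further in ACEi mice, a call kept in 15 alternative fits and lost in 6, and did not pass the test with anti-miR-21. By edgeR's quasi-likelihood test no member differed between the treatments, while DESeq2 called 2 members and an edgeR model of only these groups called 2. In the test across all genes, 7 of the 8 members fell in Veh relative to WT and none rose (adjusted p under 0.05). Of all genes tested, 73.0% were called in this comparison, 34.0% as lower and 39.0% as higher. The median log2 fold change was −1.32 over the members and 0.07 over all genes. In 5 members the CPM of the Veh and WT mice did not overlap, as in 54.9% of all genes.

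**Figure D1:**
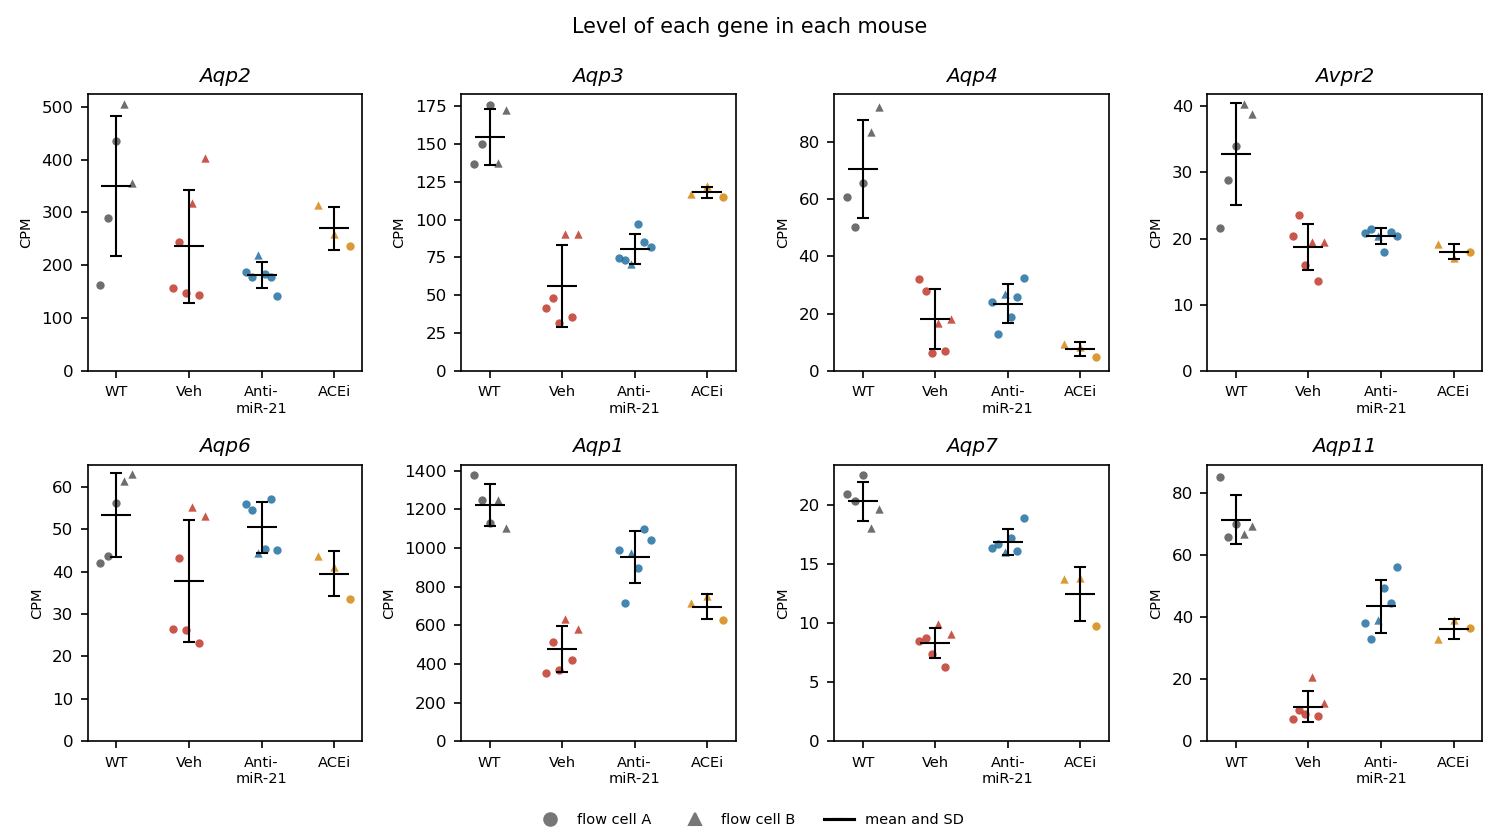
CPM of each gene (vertical axes, from 0) in each mouse of the WT, Veh, Anti-miR-21 and ACEi groups, with circles for flow cell A, triangles for flow cell B, and the mean and SD as bars. Aqp1, Aqp3, Aqp4, Aqp7 and Aqp11 of the Veh mice lie below all WT mice, and the 3 ACEi mice have 4.74 to 9.45 CPM of Aqp4.

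Principal cells of the collecting duct come first, because the hormone acts there. Aqp2, the vasopressin-regulated apical water channel (ENSMUSG00000023013, chromosome 15 of GRCm38, 99579055 to 99584547, plus strand), had 163, 290, 355, 435 and 504 CPM in WT mice. In Veh mice the lowest, median and highest values were 143, 200.7 and 403 CPM, in Anti-miR-21 mice 142, 181 and 219.05 CPM, and in ACEi mice the values were 236, 259 and 314 CPM. The WT and Veh mice overlapped across most of their ranges, and the Anti-miR-21 mice were packed at the low end of both. The difference between Veh and WT was −0.57 on the log2 scale (standard error 0.27, adjusted p = 0.0605). Of 13 other settings it passed the test in 2, with flow cell as a term (−0.58, adjusted p = 0.0163) and in flow cell A alone (−0.77, adjusted p = 0.0177). Of 11 fits that left out a mouse it passed in 3, without WT mouse A3, Veh mouse A16 or Veh mouse A20 (adjusted p of 0.0105, 0.0352 and 0.00858). Without WT mouse A17 it was −0.40 (adjusted p = 0.195), and with library totals alone as scaling it was −0.01.

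With TMM scaling Aqp2 did not pass the test with either treatment against Veh, at −0.38 (adjusted p = 0.211) with anti-miR-21 and 0.19 (adjusted p = 0.645) with ACEi. With library totals alone the anti-miR-21 difference was −0.70 and passed (adjusted p = 0.0227). Against WT, Aqp2 was lower in Anti-miR-21 mice (−0.95 on the log2 scale, standard error 0.27, adjusted p = 0.00732), a call lost on log2(FPKM + 1) (−0.61, adjusted p = 0.123) and on log2(FPKM + 0.1) (−0.61, adjusted p = 0.115). In Veh, the flow cell moved with Aqp2, at 143 to 245 CPM in the 4 libraries of flow cell A and 318 and 403 CPM in the pair of flow cell B. Its part in the differences between mice was not tested beyond the fit with flow cell as a term and the values within each flow cell.

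Avpr2, the receptor upstream of Aqp2 (ENSMUSG00000031390, chromosome X, 73892102 to 73895502, plus strand), had 21.6, 28.8, 34.0, 38.9 and 40.4 CPM in WT mice. Its lowest, median and highest values were 13.6, 19.5 and 23.5 CPM in Veh and 18.02, 20.6 and 21.5 CPM in Anti-miR-21 mice, and ACEi mice had 16.998, 17.9 and 19.2 CPM. The F1-Col4a3-/- groups lay together, below all WT mice except WT mouse A3. Avpr2 was 1.74-fold lower in Veh than in WT (log2 fold change −0.80, standard error 0.14, adjusted p = 2.25e-05). It did not pass the test in either treated group against Veh, at 0.12 (adjusted p = 0.458) with anti-miR-21 and −0.06 (adjusted p = 0.805) with ACEi. Both treated groups remained lower than WT, by −0.69 (adjusted p = 0.000479) and −0.86 (adjusted p = 0.000372), the former at −0.46 within flow cell A (adjusted p = 0.0501). Avpr2 overlaps L1cam and Arhgap4 on the opposite strand, and reads from overlapping genes cannot be told apart where strand was not recorded.

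The calls of Avpr2 and Aqp6 depended on scaling. The TMM factors that rescale each library lay between 0.771 and 0.850 in WT and between 1.12 and 1.26 in Veh mice. With library totals alone the median over all genes, Veh against WT, was 0.65 on the log2 scale in place of 0.07, Avpr2 was at −0.23 (adjusted p = 0.167) and Aqp6 at 0.08 (adjusted p = 0.726). Both then still lay below that median. On log2(FPKM + 1) Avpr2 was at −0.25 (adjusted p = 0.122) and Aqp6 at 0.020 (adjusted p = 0.956), and with upper-quartile scaling Aqp6 was at −0.39 (adjusted p = 0.0775).

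Aqp3, the basolateral water and glycerol channel (ENSMUSG00000028435, chromosome 4, 41092722 to 41098183, minus strand), had 137, 138, 150, 173 and 175 CPM in WT mice. Veh mice had a lowest, median and highest value of 31.8, 44.8 and 90.2 CPM, Anti-miR-21 mice one of 70.9, 78.2 and 96.7 CPM, and ACEi mice had 115, 117 and 122 CPM. The ACEi mice stood between the highest Veh and the lowest WT mouse without overlap, whereas the Anti-miR-21 mice overlapped Veh. Aqp3 was 2.75-fold lower in Veh than in WT (log2 fold change −1.46, standard error 0.22, adjusted p = 4.86e-06). With ACEi it was 2.10-fold higher than in Veh (log2 fold change 1.07, standard error 0.25, adjusted p = 0.00197), and with anti-miR-21 it was 1.43-fold higher (log2 fold change 0.52, standard error 0.21, adjusted p = 0.0388). Against WT, ACEi mice were at −0.39 (adjusted p = 0.240) and Anti-miR-21 mice at −0.94 (adjusted p = 0.00172).

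Flow cell moved with Aqp3 in Veh mice, at 31.8 to 47.9 CPM in flow cell A and 90.1 and 90.2 CPM in flow cell B. Within flow cell B alone, ACEi mice had 117 and 122 CPM, a log2 fold change of 0.43 against Veh (adjusted p = 0.0781), and the ACEi mouse of flow cell A had 115 CPM. Within flow cell A alone, anti-miR-21 raised Aqp3 by 1.07 (adjusted p = 1.06e-05). The call of Aqp3 with anti-miR-21 was lost without any single one of Veh mice A1, A4, A9 and A19 or Anti-miR-21 mice A12, A15 and A22, with adjusted p of up to 0.0833, and with library totals alone the value was 0.18 (adjusted p = 0.407). It was also lost with upper-quartile scaling (adjusted p = 0.0637), with only these groups in the model (adjusted p = 0.0777) and on log2(FPKM + 1) (0.28, adjusted p = 0.246).

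Aqp4, the other basolateral water channel (ENSMUSG00000024411, chromosome 18, 15389496 to 15410982, minus strand), had 50.2, 60.7, 65.7, 83.3 and 92.1 CPM in WT mice. Its lowest, median and highest values were 6.30, 17.5 and 32.3 CPM in Veh and 12.9, 25.002 and 32.5 CPM in Anti-miR-21 mice, and ACEi mice had 4.74, 8.34 and 9.45 CPM. No F1-Col4a3-/- mouse reached the lowest WT mouse, and the ACEi mice lay at the low end of Veh, below every Anti-miR-21 mouse. Aqp4 was 3.89-fold lower in Veh than in WT (log2 fold change −1.96, standard error 0.34, adjusted p = 2.96e-05).

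With ACEi, Aqp4 was 2.41-fold lower than in Veh (log2 fold change −1.27, standard error 0.44, adjusted p = 0.0257), and with anti-miR-21 it was at 0.38 (adjusted p = 0.333). Against WT it was 9.37-fold lower with ACEi (log2 fold change −3.23, standard error 0.48, adjusted p = 1.79e-05) and 2.996-fold lower with anti-miR-21 (log2 fold change −1.58, adjusted p = 0.000884). The call against Veh was lost without Veh mouse A1 (−0.996, adjusted p = 0.0636), Veh mouse A4 (−1.08, adjusted p = 0.0584), ACEi mouse A13 (−1.35, adjusted p = 0.0653) or ACEi mouse A23 (−1.02, adjusted p = 0.124), and when the model held only those groups (adjusted p = 0.0705). Within flow cell B, with 2 mice a group, Aqp4 was lower with ACEi by a log2 fold change of −0.95 (adjusted p = 0.0224). Adipocyte markers moved with this comparison, as 5 of 6 were lower in ACEi than in Veh, and with their mean as a term Aqp4 was at −1.06 (adjusted p = 0.0916). Of 7 genes of medullary tonicity and urea transport, 3 were lower with ACEi (19.1% of all genes) and 4 were not called. Among the lower ones were the urea transporters Slc14a1 at −1.87 (adjusted p = 0.0133) and Slc14a2 at −2.09 (adjusted p = 0.0301). With anti-miR-21, where Aqp4 was not called, Slc14a1 was also lower than in Veh (−1.44) and Slc14a2 was not called. Of the ACEi mice, A23 was lowest and A11 highest for Aqp4, Slc14a1 and Slc14a2. Between WT and Veh, where Aqp4 fell, mean Slc14a1 went from 6.00 to 10.6 CPM and mean Slc14a2 from 31.4 to 33.0 CPM. The part of the share of medulla in each sample was not tested. An antisense gene, AC133525.2, overlaps Aqp4.

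The promoters of Aqp2 and Aqp3 are shown because both encode water channels of the principal cell, and that of Aqp11 because its change was the largest among the 8 genes. Each run is the 250 bases before the annotated start in RefSeq (GRCm38.p6), read in the direction of the gene, at chr15:99578806-99579055 (plus strand) for Aqp2, chr4:41098184-41098433 (minus) for Aqp3 and chr7:97738248-97738497 (minus) for Aqp11. Capitals mark cyclic AMP response element core, GATA and TATA motifs found on either strand.
Aqp2: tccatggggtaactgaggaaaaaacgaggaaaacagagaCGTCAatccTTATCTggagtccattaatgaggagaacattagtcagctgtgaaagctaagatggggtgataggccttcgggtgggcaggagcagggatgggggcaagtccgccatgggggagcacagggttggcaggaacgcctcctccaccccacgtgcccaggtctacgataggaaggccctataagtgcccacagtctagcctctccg
Aqp3: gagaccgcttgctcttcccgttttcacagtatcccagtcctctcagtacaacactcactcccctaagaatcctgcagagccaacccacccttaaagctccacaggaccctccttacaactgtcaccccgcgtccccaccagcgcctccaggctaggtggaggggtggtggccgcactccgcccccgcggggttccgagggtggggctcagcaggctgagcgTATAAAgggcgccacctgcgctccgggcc
Aqp11: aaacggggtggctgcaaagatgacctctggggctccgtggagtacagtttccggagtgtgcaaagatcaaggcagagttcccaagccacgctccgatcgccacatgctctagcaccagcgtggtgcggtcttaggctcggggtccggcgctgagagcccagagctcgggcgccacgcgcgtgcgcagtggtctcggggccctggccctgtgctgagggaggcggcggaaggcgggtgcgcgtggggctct

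The Aqp2 promoter holds the core of a cyclic AMP response element (TGACG, here on the opposite strand as CGTCA) near the far end of the run. A GATA motif (AGATAA, as TTATCT) follows it within a few bases, and an ETS motif (AGGAAG), left in lower case, lies at −38 to −33 from the start. The core is present in 17.8%, the GATA motif in 9.99% and the ETS motif in 29.5% of 32851 promoters of the same length. The full element TGACGTCA is in none of the members' promoters that were searched and in 1.55% of all, and the core overlaps it by construction. Aqp3 has a TATA motif (TATAAA) at −29 to −24, as 12.4% of promoters have it on either strand. In Aqp11 none of the searched letters occur. The motifs searched beside these were HNF1, HNF4, the tonicity element and a PPAR direct repeat, on both strands, and a match is a description of letters only. Promoters of 7 of the 8 members were searched. That of Aqp4 was not, because its chromosome was left out when the members' promoters were selected.

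The 3 proximal tubule genes fell in Veh relative to WT and were higher with each treatment than in Veh. Aqp11, an intracellular aquaporin whose loss gives polycystic kidneys in mice (ENSMUSG00000042797, chromosome 7, 97724006 to 97738289, minus strand), had 65.6, 66.7, 69.1, 69.9 and 84.9 CPM in WT mice. Its lowest, median and highest values were 7.05, 9.42 and 20.7 CPM in Veh and 33.1, 41.8 and 56.1 CPM in Anti-miR-21 mice, and ACEi mice had 32.8, 36.6 and 39.1 CPM. The WT, treated and Veh mice formed separate bands, with both treatments in the same band. Aqp11 was 6.39-fold lower in Veh than in WT (log2 fold change −2.68, standard error 0.21, adjusted p = 4.14e-10), the largest change among the 8 genes. It was 3.89-fold higher than in Veh with anti-miR-21 (log2 fold change 1.96, standard error 0.20, adjusted p = 1.2e-07) and 3.25-fold higher with ACEi (log2 fold change 1.70, standard error 0.23, adjusted p = 1.99e-05). Both treated groups stayed lower than WT, by −0.72 (adjusted p = 0.00586) and −0.98 (adjusted p = 0.0027).

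Aqp1 (ENSMUSG00000004655, chromosome 6, 55336432 to 55348555, plus strand) had 1105, 1130, 1247, 1250 and 1378 CPM in WT mice. Its lowest, median and highest values were 351, 466.2 and 635 CPM in Veh and 715, 983 and 1096 CPM in Anti-miR-21 mice, and ACEi mice had 626, 716 and 749 CPM. All Anti-miR-21 mice lay above all Veh mice and below all WT mice, and 1 ACEi mouse lay below the highest Veh mouse. Aqp1 was 2.55-fold lower in Veh than in WT (log2 fold change −1.35, standard error 0.14, adjusted p = 3.39e-08). It was 1.99-fold higher than in Veh with anti-miR-21 (log2 fold change 0.99, standard error 0.14, adjusted p = 3.81e-06) and 1.46-fold higher with ACEi (log2 fold change 0.54, standard error 0.16, adjusted p = 0.0116). The ACEi call was lost without ACEi mouse A13 (0.49, adjusted p = 0.0571), within flow cell B (0.29, adjusted p = 0.212), with library totals alone (0.28, adjusted p = 0.116) and with the adipocyte marker term (0.43, adjusted p = 0.0551). It was also lost on log2(FPKM + 1) (0.30, adjusted p = 0.124) and log2(FPKM + 0.1) (0.30, adjusted p = 0.129).

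Aqp1 also lies in red cells and endothelium, and red cell markers moved with it. All 6 such markers fell in Veh relative to WT (median −4.22 on the log2 scale), and their summed level was 1099 to 6562 CPM in WT and 12.7 to 399 CPM in Veh. With anti-miR-21, 6 of 6 were higher than in Veh, and with ACEi 5 of 6. Of the endothelial markers, 4 of 6 were higher and 1 lower in Veh than in WT. The part of these cells in the Aqp1 result was not tested. In whole kidney, fewer cells of a type and less RNA per cell cannot be told apart, for Aqp1 as for the other members.

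Aqp7, a glycerol and water channel of the proximal straight tubule (ENSMUSG00000028427, chromosome 4, 41033074 to 41048139, minus strand), had 18.03, 19.7, 20.3, 20.9 and 22.6 CPM in WT mice. Its lowest, median and highest values were 6.32, 8.63 and 9.90 CPM in Veh and 16.02, 16.5 and 18.9 CPM in Anti-miR-21 mice, and ACEi mice had 9.78, 13.7 and 13.8 CPM. ACEi mouse A23 lay within the Veh range, and the other treated mice lay above it. Aqp7 was 2.44-fold lower in Veh than in WT (log2 fold change −1.29, standard error 0.11, adjusted p = 1.04e-09). With anti-miR-21 it was 2.03-fold higher than in Veh (log2 fold change 1.02, standard error 0.10, adjusted p = 1.13e-07), and with ACEi 1.495-fold higher (log2 fold change 0.58, standard error 0.12, adjusted p = 0.000941). Aqp7 is also the glycerol channel of adipocytes, for which 5 of 6 markers rose in Veh relative to WT while Aqp7 was lower, and with those markers as a term Aqp7 was at −1.29 (adjusted p = 6.88e-09). The Veh mouse with the most adipocyte marker RNA, A1, had 8.49 CPM of Aqp7, beside the Veh median of 8.63 CPM. The part of adipocytes in the Aqp7 result was not tested beyond the fit with their markers. That fit was added once values had been seen.

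Aqp6, an anion and water channel of intercalated cells (ENSMUSG00000043144, chromosome 15, 99601400 to 99605477, plus strand, next to Aqp2), had 42.1, 43.6, 56.2, 61.4 and 63.0 CPM in WT mice. The lowest, median and highest values were 23.1, 34.9 and 55.1 CPM in Veh and 44.4, 49.9 and 57.1 CPM in Anti-miR-21 mice, and ACEi mice had 33.5, 41.2 and 43.7 CPM. All groups overlapped Veh. Aqp6 was 1.41-fold lower in Veh than in WT (log2 fold change −0.49, standard error 0.20, adjusted p = 0.0304), a call lost without any single one of WT mice A14, A17 and A18 or Veh mice A1, A9 and A19, with adjusted p of up to 0.0773. It was also lost in flow cell B alone (−0.21, adjusted p = 0.0957), with a minimum of 10 counts in every mouse (adjusted p = 0.0543), with only these groups in the model (adjusted p = 0.0797) and with the adipocyte marker term (adjusted p = 0.0533). It did not pass the test with anti-miR-21 (0.41, adjusted p = 0.0658) or ACEi (0.06, adjusted p = 0.858) against Veh. Flow cell moved with it in Veh, at 23.1 to 43.2 CPM in flow cell A and 53.0 and 55.1 CPM in flow cell B, and with flow cell as a term the anti-miR-21 difference was 0.55 (adjusted p = 0.00644). Such a split was not particular to Aqp2, Aqp3 and Aqp6. In Veh, flow cells A and B also held 351 to 513 and 584 to 635 CPM of Aqp1. For Aqp7 these were 6.32 to 8.77 and 9.06 to 9.90 CPM, and for Aqp11 7.05 to 10.0 and 12.2 to 20.7 CPM. In WT, they were 50.2 to 65.7 and 83.3 to 92.1 CPM for Aqp4, and 21.6 to 34.0 and 38.9 to 40.4 CPM for Avpr2. Aqp6 in WT split likewise, at 42.1 to 56.2 and 61.4 to 63.0 CPM. For Aqp1, Aqp2, Aqp3 and Aqp11 the flow cells overlapped in WT. Aqp7 in WT was lower in flow cell B (18.03 to 19.7 against 20.3 to 22.6 CPM). Of the Veh mice in flow cell B, A16 had the group's highest sum of proximal tubule markers (5105 CPM). The other, A20, had its lowest sum of tubule injury markers (10451 CPM). The part of disease severity in the split was not tested.

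Across the members, anti-miR-21 was followed by 4 higher and 0 lower calls against Veh, where 59.2% of all genes were called, 28.8% as higher and 30.5% as lower. The groups did not overlap for 3 members, Aqp1, Aqp7 and Aqp11, as for 36.4% of all genes. ACEi was followed by 4 higher and 1 lower call, where 40.2% of all genes were called, 21.0% as higher and 19.1% as lower, and 2 members, Aqp3 and Aqp11, did not overlap, as 38.6% of all genes. These comparisons share the Veh mice. The median log2 fold change over the 8 members was 0.47 with anti-miR-21 and 0.37 with ACEi, against −0.04 and −0.05 over all genes. Against WT, 7 members were lower in Anti-miR-21 mice, all but Aqp6 (43.7% of all genes called, 19.8% as lower, 23.9% as higher), and 5 in ACEi mice, namely Aqp1, Aqp4, Aqp7, Aqp11 and Avpr2 (47.7% called, 22.5% as lower, 25.2% as higher). The WT and Anti-miR-21 mice did not overlap for 5 members (23.8% of all genes), and the WT and ACEi mice for 6 (46.1%). The anti-miR-21 calls of Aqp1 (−0.36, adjusted p = 0.0445) and Aqp7 (−0.27, adjusted p = 0.0447) against WT sat at the threshold and were both lost on library totals, upper-quartile scaling and FPKM, under either other filter on low counts, and with flow cell or adipocyte markers as a term. Aqp1 lost its call without WT mouse A3, A6 or A17 or Anti-miR-21 mouse A2, A8, A10 or A12, with adjusted p of up to 0.114. Aqp7 lost it without WT mouse A3, A6, A14 or A18 or any Anti-miR-21 mouse but A22, with adjusted p of up to 0.113.

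**Figure D2:**
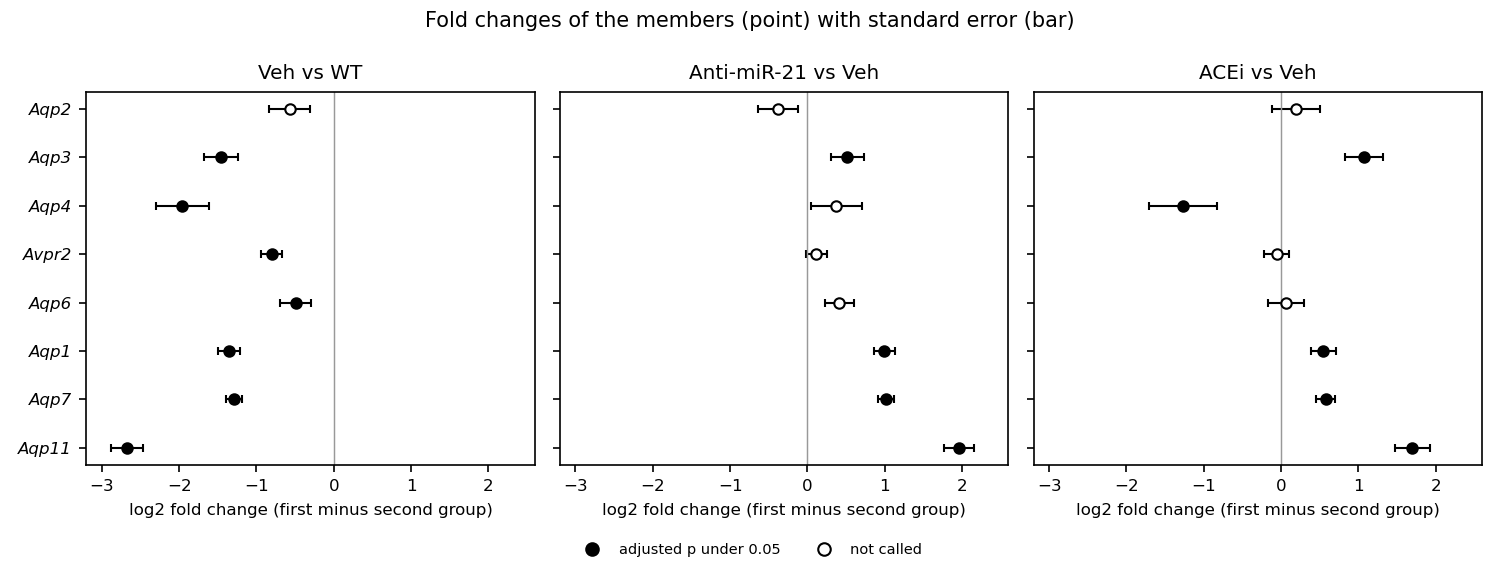
Log2 fold change (horizontal axis, first minus second group named above each panel) of each member with its standard error, filled where the adjusted p was under 0.05. In Veh against WT all members lie left of 0, and Aqp4 with ACEi, at −1.27, is the only filled point left of 0 in the treatment panels.

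Direct comparison of the treatments called 0 members with edgeR's quasi-likelihood test, where 0.584% of all genes were called. An unadjusted p under 0.05 was present for 4 members, as for 14.5% of all genes, and 5 members had groups that did not overlap, as 8.99% of all genes did. Aqp4 was higher with anti-miR-21 than with ACEi by 1.65 on the log2 scale (standard error 0.44, adjusted p = 0.0908), and all 6 Anti-miR-21 mice lay above all 3 ACEi mice. Aqp7 was at 0.44 (adjusted p = 0.113) and Aqp1 at 0.45 (adjusted p = 0.226), and both had higher means with anti-miR-21. Aqp3 at −0.55 (adjusted p = 0.315) and Aqp2 at −0.57 (adjusted p = 0.401) had higher means with ACEi, and neither gene's groups overlapped. DESeq2's Wald test called Aqp4 (adjusted p = 0.0153) and Aqp7 (adjusted p = 0.0353), and an edgeR model of only these groups called Aqp3 (adjusted p = 0.0197) and Aqp4 (adjusted p = 0.0256).

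The place of a treated mouse between the Veh and WT means was expressed as a percent of that distance on the log2 CPM scale. For Aqp11 the Anti-miR-21 mice stood at 73.5% ± 10.0 (SD, n = 6) and the ACEi mice at 64.7% ± 4.64 (SD, n = 3). For Aqp1 these places were 73.4% ± 15.8 and 41.6% ± 9.70, and for Aqp7 79.5% ± 6.93 and 44.4% ± 21.9. The proximal tubule genes thus had the further mean place with anti-miR-21, within overlapping ranges for Aqp1 and Aqp11 and without overlap for Aqp7. For Aqp3 the order of the means was the opposite, at 40.4% ± 10.7 with anti-miR-21 and 75.9% ± 2.71 with ACEi. For Aqp4 the places were 26.1% ± 21.6 and −49.3% ± 24.2, the latter beyond the Veh mean on the side away from WT. Avpr2 stood at 17.3% ± 11.4 and −4.80% ± 11.1. Aqp6 stood at 88.0% ± 30.6 and 24.95% ± 36.0, over a Veh range from −111% to 113%. The differences between treatments in these places are those of the direct comparison above.

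**Figure D3:**
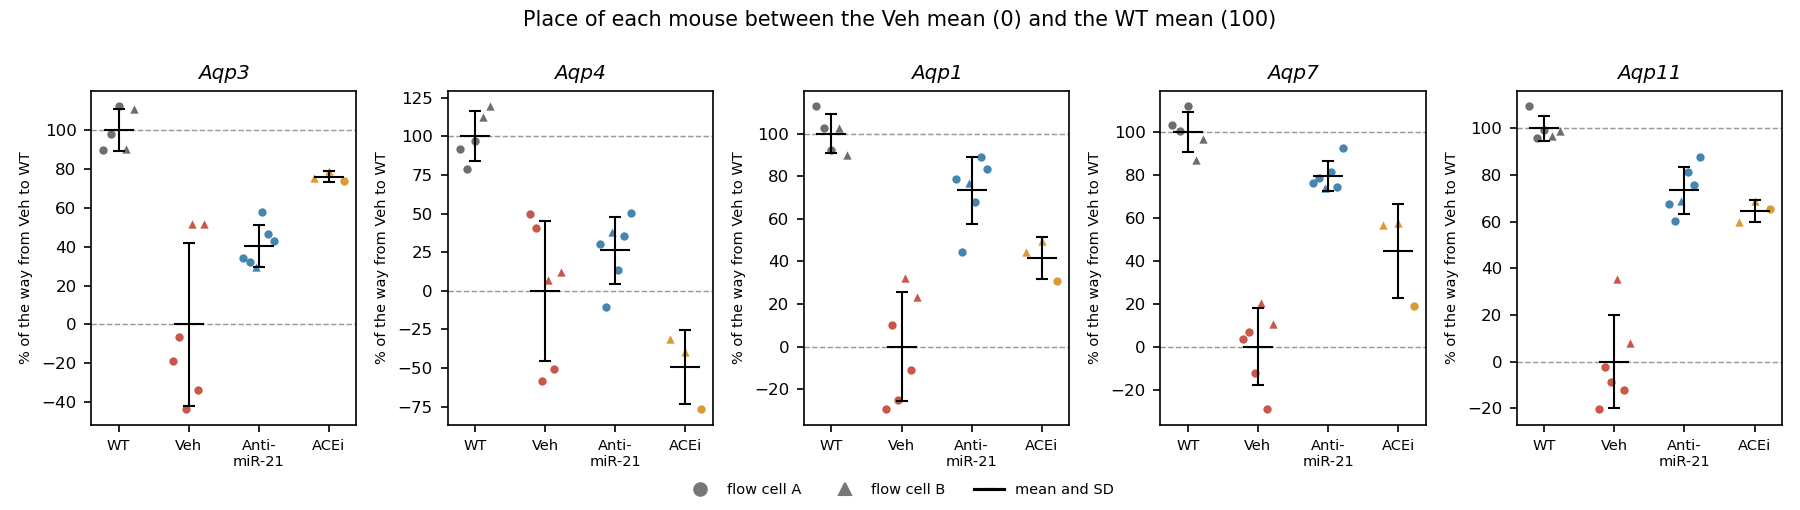
Position of each mouse between the means of Veh and WT in percent (vertical axes, log2 CPM scale, dashed lines at 0 and 100), with circles and triangles for flow cells A and B and bars for the mean and SD. With ACEi, Aqp3 lies at 73.6% to 78.9% and Aqp4 at −76.9% to −31.5%.

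Each member was set beside markers of its cell type, as its log2 CPM minus their mean log2 CPM, to show whether it moved with its segment. Aqp11 moved as far as the mean of the 8 proximal tubule markers, as the difference of group means between Veh and WT was −2.76 for Aqp11 and −2.68 for the mean of the markers. Its value relative to the markers changed by −0.07 in Veh, 0.01 with anti-miR-21 and −0.04 with ACEi, less than the pooled SD of 0.216, 0.181 and 0.216. Aqp1 and Aqp7 moved less than the mean of these markers, whose fitted log2 fold changes ran from −4.59 to −1.42 in Veh against WT, and against Veh from 0.69 to 3.76 in Anti-miR-21 mice and 1.15 to 2.82 in ACEi mice. Relative to that mean, Aqp1 was higher in Veh than in WT by 1.30 and Aqp7 by 1.39, without overlap of the groups. With anti-miR-21 the relative values differed from Veh by −0.996 for Aqp1 and −0.98 for Aqp7, and with ACEi by −1.24 for both, again without overlap.

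All 8 proximal tubule markers fell in Veh relative to WT and were higher with each treatment than in Veh. The most abundant were Slc34a1, a phosphate transporter (log2 fold changes −2.66, 1.96 and 1.81), and Slc27a2, a fatty acid transporter (−2.67, 1.97 and 1.48). Intercalated cell markers were lower in Veh for 7 of 7 genes, among them the proton pump subunit Atp6v1b1 at −1.06 and the bicarbonate transporter Slc4a9 at −1.12. The smallest change was that of Atp6v0d2 (−0.41). Aqp6 moved less than the mean of these markers, with a relative difference of 0.77 between Veh and WT whose groups overlapped.

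Of 4 principal cell markers 2 were lower in Veh, the cortisol-inactivating enzyme Hsd11b2 (−0.38, adjusted p = 0.00164) and the sodium channel subunit Scnn1g (−0.42, adjusted p = 0.00164), while Fxyd4 was at −0.44 (adjusted p = 0.139) and Scnn1b at −0.07 (adjusted p = 0.527). Relative to the mean of the markers, Aqp4 was lower in Veh than in WT by −1.85 and Aqp3 by −1.26, without overlap of the groups. Aqp2 differed by −0.27 and Avpr2 by −0.47, both with overlap. With ACEi, Aqp3 was higher than in Veh by 1.05 relative to the markers without overlap, and Aqp4 differed by −1.22 with overlap. With anti-miR-21 the relative differences from Veh were 0.63 for Aqp3, 0.56 for Aqp4, 0.13 for Avpr2 and −0.28 for Aqp2, all with overlap. Scnn1g was higher than in Veh with anti-miR-21 (0.34, adjusted p = 0.00901) and with ACEi (0.39, adjusted p = 0.0175).

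**Figure D4:**
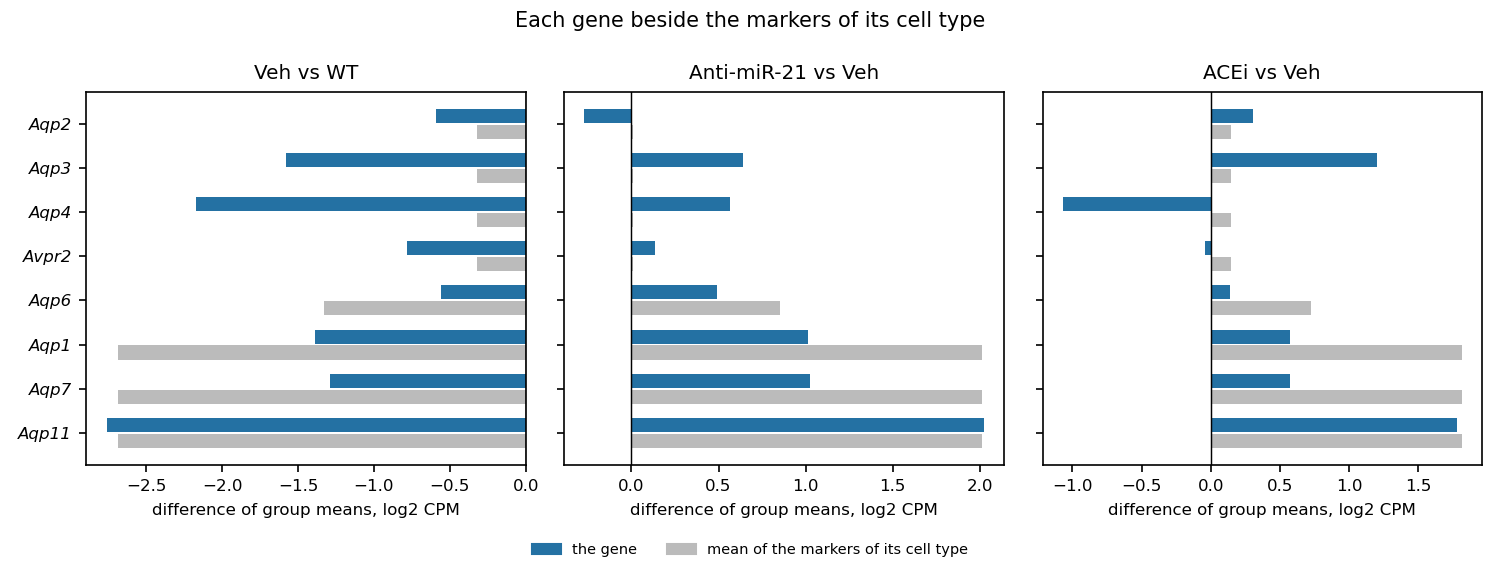
Difference of group mean log2 CPM (horizontal axis) for each member (blue) and for the mean of the markers of its cell type (grey), with 4 principal cell markers for the genes from Aqp2 to Avpr2, 7 intercalated cell markers for Aqp6 and 8 proximal tubule markers for the rest. In Veh against WT, Aqp3 and Aqp4 fall further than the mean of their markers, Aqp1 and Aqp7 fall less, and Aqp11 falls as far (−2.76 against −2.68).

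Downstream of Avpr2, the receptor signals through a stimulatory G protein, adenylate cyclase and protein kinase A. Of 11 such genes, 4 were higher and 3 lower in Veh than in WT, against 39.0% and 34.0% of all genes. The higher ones were the adenylate cyclase Adcy3 (1.83, adjusted p = 5.28e-08), the phosphodiesterase Pde4a (1.15, adjusted p = 6.91e-08), the transcription factor Creb1 (0.38) and the kinase subunit Prkar1a (0.15). The lower ones were the kinase subunits Prkar2a (−0.55) and Prkaca (−0.36) and the G protein gene Gnas (−0.19). Adcy6, the cyclase that answers the V2 receptor in principal cells, was at 0.10 (adjusted p = 0.193). With anti-miR-21 Prkar2a was higher and Adcy3 and Pde4a lower than in Veh, and with ACEi Prkar2a was higher and Pde4a lower.

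Of 9 genes for the transport and fusion of Aqp2 vesicles, 4 were lower and 2 higher in Veh than in WT. Of all genes, 34.0% were lower and 39.0% higher. The vesicle motor Myo5b (−0.85, adjusted p = 7.6e-11), the syntaxin Stx3 (−0.53), Snap23 (−0.36) and Stxbp2 (−0.35) were lower, and Stx4a (0.36) and Vamp3 (0.13) were higher. Myo5b, Stx3 and Snap23 were higher than in Veh with anti-miR-21 (0.50, 0.30 and 0.25) and with ACEi (0.35, 0.42 and 0.32). With anti-miR-21 Rab11fip2 was also higher (0.19) and Vamp2 lower (−0.22).

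Of 8 transcription factors of the collecting duct, 4 were higher and 1 lower in Veh than in WT, against 39.0% and 34.0% of all genes. Elf3 (2.12), Grhl2 (0.93), Hoxb7 (0.49) and Gata3 (0.41) were higher and Tfcp2l1 (−0.24) was lower. With anti-miR-21, 6 were lower than in Veh (30.5% of all genes), among them Elf3 (−1.36) and Elf5 (−2.13), and Tfcp2l1 was higher (0.18). With ACEi 4 were lower (19.1% of all genes), Elf3 (−0.84), Elf5 (−1.69), Grhl2 (−1.01) and Hoxb7 (−0.60). Tfcp2l1 with ACEi was at 0.17 (adjusted p = 0.122).

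Genes of medullary tonicity and of urea transport, which serve urine concentration together with the water channels, did not move as a group. The tonicity factor Nfat5 was higher in Veh than in WT (0.95, adjusted p = 1.54e-07). The osmolyte transporters Slc5a3, for inositol (−1.03), and Slc6a12, for betaine (−2.07), were lower. The other 4 genes did not pass the test, among them the taurine transporter Slc6a6 (−0.05) and aldose reductase Akr1b3 (−0.54). In this comparison 73.0% of all genes were called. With ACEi, the urea transporters Slc14a1 (−1.87, adjusted p = 0.0133) and Slc14a2 (−2.09, adjusted p = 0.0301) were lower than in Veh, as was Nfat5 (−0.60). With anti-miR-21, Slc14a1 (−1.44) and Nfat5 (−0.66) were lower and Slc5a3 (0.98) was higher.

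Aqp3 and Aqp7 carry glycerol, and of 4 enzymes that use glycerol or its phosphate, 3 were lower in Veh than in WT. In that comparison 34.0% of all genes were lower. Glycerol kinase Gk fell from a mean of 615 to 85.3 CPM (log2 fold change −2.85, adjusted p = 5.22e-10), Gpd1 from 730 to 168 CPM (−2.12) and Gpd2 from 62.9 to 24.2 CPM (−1.38), while Gpd1l was at −0.13. The same 3 enzymes were higher than in Veh with anti-miR-21 (2.09, 1.61 and 0.92) and with ACEi (1.66, 1.31 and 0.81).

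After subtraction of each group's mean, the log2 CPM of the members varied together among the 20 mice. Pearson's r was above 0 for 27 of 28 pairs, with a median of 0.52, from −0.06 for Aqp11 with Avpr2 to 0.83 for Aqp2 with Aqp6. Values of a mouse share its library, its scaling and its flow cell, so these r describe the set and carry no test. Among 15319 other protein-coding genes, those closest to Aqp11 were the potassium channel Kcnj15 (r = 0.98), Aldh8a1 (0.96) and the organic anion transporter Slco1a6 (0.96). Closest to Aqp1 were Slc16a9 (0.93), A1cf (0.92) and Pcx (0.91), and to Aqp7 Slc39a11 (0.85), Eme2 (0.83) and Phyhip (0.81).

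In principal cells, Avpr2 was closest to Fxyd4 (0.93), a regulator of the sodium pump there and one of the principal cell markers, then to Chst8 (0.90) and Gstm2 (0.86). Aqp2 was closest to Dab1 (0.86), the prostaglandin receptor Ptger1 (0.85) and Apela (0.84). Aqp3 was closest to Cmah (0.92), Akr1c14 (0.91) and Akr1c18 (0.91), and Aqp4 to Wscd2 (0.82), Bysl (0.79) and Rd3 (0.78). Aqp6 was closest to Bsnd (0.93), the chloride channel subunit barttin of the distal nephron, then to Tmem207 (0.91) and Akr1c18 (0.89).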

How the data were processed

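The authors mapped paired-end reads to GRCm38 with the OmicSoft aligner OSA4 and deposited estimated counts (expected counts) per Ensembl gene, of which 29.1% of the positive values are not whole. They also deposited FPKM values for 33368 entries, mostly on another gene model, scaled for length and library total. The table of libraries deposited by the authors gave flow cells, doses and alignments. Here, 3 FPKM columns that match no sample were not used, and counts were rounded. Genes passed filterByExpr (minimum count 10, minimum total 15) and were scaled by TMM and tested in R 4.3.3 by edgeR (version 4.0.16, quasi-likelihood F-test), all 20 mice in 1 model with a term for each group, and Benjamini-Hochberg adjustment at 0.05. Standard errors were derived from the F statistics. Log2 CPM used a prior count of 2. Fits with limma 3.58.1 (log2 of FPKM plus 1 or 0.1) and DESeq2 1.42.0, other scalings and filters, flow cell as a term or alone, and omission of each mouse were alternatives, and the steps were tested on simulated data. The fits of flow cell B alone and with an adipocyte marker term were added once values had been seen. The members and gene lists were chosen with earlier results of these data known. Named genes were the members, the 2 most abundant genes of a list, genes of lists with up to 5 calls in a direction, and the 3 closest genes per member. Sequences are from RefSeq (GRCm38.p6), and gene positions from GENCODE M21. All 8 members passed the filter at this depth, and the errors given are those between mice. Plots used matplotlib 3.10.9.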

Additional observations from a re-analysis of the deposited data

Results flagged for a closer look

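Of 24 sets of CPM values (each member in WT, Veh and Anti-miR-21 mice), 2 held a mouse far from the others by Dixon's test, where chance gives about 1 in 20. Aqp11 in WT was highest in mouse A3, at 84.9 CPM, with the next mouse at 69.9 CPM. The same mouse had the lowest Aqp2 (163 CPM), Aqp3 (137 CPM), Aqp6 (42.1 CPM) and Avpr2 (21.6 CPM) of the WT group and the highest Aqp1 (1378 CPM), with the largest sum of proximal tubule markers (22183 CPM). It was also lowest in WT for Slc14a1 (1.43 CPM), Slc14a2 (2.63 CPM), Slc6a12 (0.579 CPM), Fxyd4 (17.5 CPM) and Nfat5. WT mouse A17 was highest for Slc14a1 (9.28 CPM), Slc14a2 (70.5 CPM), Slc6a12 (9.89 CPM), Fxyd4 (56.6 CPM), Aqp2 and Avpr2. Of the other tonicity genes, Slc5a3, Slc6a6 and Akr1b3 were lowest in other WT mice. The part of the share of medulla in the WT mice was not tested. Without mouse A3, Aqp2 passed the test between Veh and WT (−0.75, adjusted p = 0.0105). Avpr2 with anti-miR-21 was lowest in mouse A12, at 18.02 CPM, with the next mouse at 20.3 CPM, and that mouse had the highest sum of adipocyte markers of its group, 231 CPM.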

How the results depend on the processing

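Over all alternatives, 935 fold changes of members kept direction and side of the threshold, 75 lost a call, 17 gained one and 29 changed sign. With single mice left out, the number of members called (and the share of all genes called) was 6 to 8 for Veh against WT (70.9% to 72.8%), 3 to 5 for Anti-miR-21 against Veh (54.8% to 58.9%), 3 to 5 for ACEi against Veh (27.7% to 41.7%, with 3 members and 27.7% without ACEi mouse A13), 0 to 0 for Anti-miR-21 against ACEi (0.117% to 1.22%), 5 to 7 for Anti-miR-21 against WT (37.8% to 45.1%) and 5 to 5 for ACEi against WT (38.1% to 47.8%). For ACEi against Veh, 3 members were called in flow cell B alone (9.06% of all genes) and 3 with the adipocyte marker term (37.3%). For Anti-miR-21 against ACEi, 2 were called by DESeq2 (2.50%) and 2 with only these groups in the model (0.848%), and for Anti-miR-21 against WT 4 on log2(FPKM + 1) (36.4%) and 4 on log2(FPKM + 0.1) (37.7%). Signs changed only for Aqp2, Aqp6 and Avpr2, in values that did not pass the test there. With library totals alone, Aqp6 was at 0.077 in Veh against WT and 0.17 in Anti-miR-21 against WT, Avpr2 at −0.22 with anti-miR-21, and Aqp2 at −0.066 and Aqp6 at −0.20 with ACEi. On log2(FPKM + 1) and log2(FPKM + 0.1), Veh against WT gave 0.0057 and 0.0060 for Aqp2 and 0.020 and 0.019 for Aqp6, Anti-miR-21 against Veh −0.17 and −0.18 for Avpr2, ACEi against Veh −0.13 and −0.13 for Aqp6, Anti-miR-21 against WT 0.17 and 0.17 for Aqp6, and ACEi against WT 0.031 and 0.031 for Aqp2. Aqp2 in Anti-miR-21 against Veh was at 0.0091 in flow cell A alone. In ACEi against Veh, flow cell B alone gave −0.31 for Aqp2 and −0.32 for Aqp6, and Aqp6 was at −0.050 with flow cell as a term, −0.0098 with upper-quartile scaling and −0.0015 with the adipocyte term, where Avpr2 was at 0.032. Aqp6 in Anti-miR-21 against WT was at 0.052 with flow cell as a term and 0.14 in flow cell A alone. Leaving out single mice gave −0.020 to 0.23 for Aqp6 and −0.11 to 0.045 for Avpr2 in ACEi against Veh. With library totals alone, places between Veh and WT became 93.1% (Aqp3) and −84.4% (Aqp4) with ACEi, 96.8% (Aqp7) with anti-miR-21, 69.6% (Aqp11) with ACEi, −648% and 564% for Aqp6 and −101% and −152% for Avpr2 with anti-miR-21 and ACEi, the last 4 over a small distance between Veh and WT on that scale. On log2(FPKM + 1), Aqp11 relative to its markers differed by −0.18 between Anti-miR-21 and Veh. The causes were not tested. No paired analysis was possible because each mouse has a number of its own. All 8 members passed the filter on low counts.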

Other observations

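Of 5 further aquaporins, 3 had enough counts to be tested. Aqp8 was lower in Veh (0.407 CPM) than in WT (2.16 CPM), at −2.40 on the log2 scale (adjusted p = 4.14e-06), and higher than in Veh with anti-miR-21 (2.85) and ACEi (2.27). Aqp9, a glycerol channel, went the other way, from 0.169 CPM in WT to 1.35 CPM in Veh (2.98, adjusted p = 1.66e-08), and was lower with anti-miR-21 (−1.53). Aqp5 was lower with anti-miR-21 than in Veh (−2.57, adjusted p = 0.0255), at means of 0.0939 and 0.583 CPM, which rest on few reads. WT mice had 0 to 3.56 CPM of Aqp5, the highest in mouse A17. The oxytocin receptor Oxtr, related to the vasopressin receptors, was higher in Veh than in WT (2.23, adjusted p = 2.92e-06) and lower with anti-miR-21 (−1.34) and ACEi (−1.16), at means of 0.329 CPM in WT and 1.55 CPM in Veh. The V1a receptor Avpr1a was at −0.22 (adjusted p = 0.132) in Veh against WT.

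Among other cell types, 6 of 7 markers of the thick ascending limb were lower in Veh than in WT, with Umod at −0.90 and Slc12a1 at −1.10. The remaining marker, Cldn16, was higher (0.59). Macrophage markers were higher for 6 of 6 genes (Csf1r 1.02, C1qb 4.33), fibroblast markers for 5 of 5 (Col3a1 4.59, Col1a1 4.37) and tubule injury markers for 6 of 6 (Spp1 4.31, Vcam1 5.64). Of 3 skeletal muscle genes 2 were tested, and Acta1 was higher in Veh (4.45, at a mean of 2.48 CPM).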
